A study of Mus musculus with 4 samples.

Results

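Accessible regions at the end of a single protein-coding gene, found in knockout (KO) and wild-type (WT) thymocytes alike, are described here. A region belongs if it is in the WT list, lies within 1000 bp of an annotated end of exactly 1 protein-coding gene, and overlaps a KO region by at least 1 bp. Of the 15215 WT regions 3171 qualify (20.8%), at 3101 genes, and 3204 of the 7645 KO regions (41.9%) touch them. They make up 54.7% of the 5795 WT regions at single gene ends, where 46.2% of all WT regions have a KO region. Since overlap between the lists chose them, nothing is read from these shares.

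The data are ATAC-seq, a sequencing of the DNA that a transposase can reach in chromatin, from sorted CD4+CD8+ double-positive (DP) thymocytes of C57BL/6 mice. KO mice carry Cd4-cre with CHAF1bfloxp/floxp, and WT mice carry CHAF1bfloxp/floxp without Cre. Both groups therefore share the floxed alleles, and a control with Cre alone was not analysed here. Each group had 2 libraries of 50000 cells, merged by the authors into 1 peak list per group, so no value per mouse and no test between groups exists. The Cd4 promoter drives Cre in T lineage cells from about the DP stage onward, and the labels do not state how much CHAF1B protein remained, the age of the mice or how many mice each library came from.

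CHAF1B belongs to the histone chaperone complex CAF-1, which places new histones H3 and H4 on freshly replicated DNA. Promoters of active genes usually keep a stretch of DNA free of nucleosomes just upstream of the transcript start, and this stretch is what ATAC-seq reports as a region. Many such promoters are rich in CpG and carry boxes for general factors: GC boxes for SP and KLF proteins, sites for ETS factors, and the CCAAT box bound by the trimer NF-Y. NF-Y has subunits folded like histones.

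The promoter sequences below are shown because the features they carry, or lack, are what the regions are later grouped by. They are RefSeq windows of GRCm38.p6, from 250 bases before to 50 bases after the transcript start, read 5′ to 3′ on the gene's strand. Capitals mark CCAAT or its reverse complement ATTGG. Sel1l (chr12:91849108-91849407, minus strand) and Hsd17b7 (chr1:169969156-169969455, minus strand) had the most WT summit reads among members with 3 or more boxes. Cblb (chr16:52031299-52031598, plus strand) and Nap1l1 (chr10:111472977-111473276, plus strand) had the most among T cell receptor signalling genes and among histone chaperone genes. Opn3 (chr1:175692583-175692882, minus strand) and Rxylt1 (chr10:122097121-122097420, minus strand) had the most among members with no box. Ctcf (chr8:105636288-105636587, plus strand) had the highest KO to WT ratio of reads. All were chosen among members whose WT summit lies in a promoter window of the table, so Nap1l4, with more WT reads than Nap1l1 but no window there, was passed over. Predicted genes were skipped.
Sel1l: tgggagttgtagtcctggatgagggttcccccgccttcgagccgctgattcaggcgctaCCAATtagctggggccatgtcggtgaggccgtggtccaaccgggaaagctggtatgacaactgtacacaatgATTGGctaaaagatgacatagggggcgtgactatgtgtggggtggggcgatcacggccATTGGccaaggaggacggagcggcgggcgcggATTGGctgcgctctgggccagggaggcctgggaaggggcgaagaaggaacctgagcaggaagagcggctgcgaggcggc
Hsd17b7: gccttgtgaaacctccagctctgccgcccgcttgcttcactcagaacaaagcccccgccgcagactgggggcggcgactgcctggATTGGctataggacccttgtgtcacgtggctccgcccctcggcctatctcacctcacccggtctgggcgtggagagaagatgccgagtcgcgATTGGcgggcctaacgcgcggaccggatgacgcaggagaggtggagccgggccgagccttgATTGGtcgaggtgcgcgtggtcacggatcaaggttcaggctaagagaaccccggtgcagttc
Cblb: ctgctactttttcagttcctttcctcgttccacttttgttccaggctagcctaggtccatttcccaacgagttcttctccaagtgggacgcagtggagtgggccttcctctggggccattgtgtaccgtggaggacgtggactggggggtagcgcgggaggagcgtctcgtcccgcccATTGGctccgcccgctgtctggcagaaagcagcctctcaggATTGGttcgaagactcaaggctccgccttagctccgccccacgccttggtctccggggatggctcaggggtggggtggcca
Nap1l1: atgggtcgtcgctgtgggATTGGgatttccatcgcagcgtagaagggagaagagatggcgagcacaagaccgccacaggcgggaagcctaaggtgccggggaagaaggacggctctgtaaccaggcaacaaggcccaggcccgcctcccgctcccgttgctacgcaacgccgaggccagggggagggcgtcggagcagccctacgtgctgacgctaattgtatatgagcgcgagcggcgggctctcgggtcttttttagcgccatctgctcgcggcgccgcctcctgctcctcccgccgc
Opn3: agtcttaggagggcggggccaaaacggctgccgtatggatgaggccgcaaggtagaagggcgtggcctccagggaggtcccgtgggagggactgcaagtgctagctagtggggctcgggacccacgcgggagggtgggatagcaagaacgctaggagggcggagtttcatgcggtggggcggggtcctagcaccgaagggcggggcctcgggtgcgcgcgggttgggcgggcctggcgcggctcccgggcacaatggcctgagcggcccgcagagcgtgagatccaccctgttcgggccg
Rxylt1: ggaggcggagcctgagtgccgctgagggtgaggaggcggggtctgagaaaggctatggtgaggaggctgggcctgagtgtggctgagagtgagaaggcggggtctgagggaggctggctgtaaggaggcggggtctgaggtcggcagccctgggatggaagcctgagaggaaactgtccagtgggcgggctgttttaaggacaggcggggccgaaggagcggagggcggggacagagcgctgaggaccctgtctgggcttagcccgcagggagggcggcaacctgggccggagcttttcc
Ctcf: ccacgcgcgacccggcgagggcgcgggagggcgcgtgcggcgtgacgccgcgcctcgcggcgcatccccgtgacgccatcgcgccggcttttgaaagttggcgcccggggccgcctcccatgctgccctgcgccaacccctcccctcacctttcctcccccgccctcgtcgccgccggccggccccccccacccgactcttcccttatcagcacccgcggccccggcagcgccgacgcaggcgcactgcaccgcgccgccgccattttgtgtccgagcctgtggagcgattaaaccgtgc

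In these windows Sel1l, which encodes a part of the endoplasmic reticulum degradation machinery, has 4 boxes, and Hsd17b7, an enzyme of cholesterol synthesis, has 3. Cblb, a ubiquitin ligase that restrains T cell receptor signalling, has 2, centred 70 and 29 bases before the start. Nap1l1, a histone H2A-H2B chaperone, has 1 at 230 bases before the start. Opn3, Rxylt1 and Ctcf have 0. GC content ran from 61.3% at Cblb to 75.3% at Ctcf. The summit held 49 KO and 79 WT reads at Sel1l, 43 KO and 76 WT reads at Hsd17b7, and 42 KO and 71 WT reads at Cblb. Without a box, Opn3 held 68 KO and 86 WT reads and Rxylt1 held 32 KO and 71 WT reads.

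Reads here are the count piled up at a region's summit, solved from the authors' fold enrichment and p-value. Whether the count is of fragments or of single reads is not given by the sources used here. The most frequent local background was 1.03 reads in KO and 1.37 in WT, and their ratio of 0.752 was taken as the ratio of depth between the lists. A KO to WT ratio below is divided by this depth ratio, so that 1 means equal reads for the depth.

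Summits of the 3171 regions held a median of 16 reads in KO (middle 50% from 13 to 21, range 7 to 201) and of 26 in WT (20 to 35, range 8 to 217). The authors' fold enrichment had a median of 6.90 in KO and 8.49 in WT. For comparison, WT regions at single gene ends without a KO region had a median of 15 reads and a fold enrichment of 5.72 in WT. Regions with more WT reads were the more often members: 17.2% of those with 7 to 14 reads, 34.9% with 15 to 19, 61.7% with 20 to 24, 89.9% with 25 to 39 and 99.5% with 40 or more. These shares are part of the choice of members and describe it.

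KO regions were the narrower. Widths had a median of 311 bp in KO and 445 bp in WT, and the KO region was narrower at 2647 of 3171 members (83.5%) and wider at 508. The KO region lay wholly inside the WT region at 1825 members (57.6%), and the median ratio of KO to WT width was 0.766. The lists put the summit at nearly the same place. KO and WT summits were a median of 30 bp apart, within 50 bp at 67.0% of members and within 100 bp at 85.8%, and the WT summit fell inside a KO region at 95.5%. The widest WT members were those of Crlf2, a cytokine receptor chain (765 bp in KO, 1555 bp in WT), Dmac1 (531 and 1255 bp), Arl4a (808 and 1244 bp), Mon1b (790 and 1196 bp) and Ahr, the aryl hydrocarbon receptor (230 and 1181 bp). How far depth alone narrows a called region was not tested.

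At 3095 members, 1 WT region met 1 KO region, and only these enter the ratios. The median depth-scaled ratio was 0.837 (95% order-statistic interval 0.826 to 0.846), and the ratio was below 1 at 2345 regions (75.8%). The interval is for the median over regions and does not cover differences between mice. Single regions ran from 0.348 to 2.53. KO exceeded WT by 1.5 times or more at 61 regions (1.97%), where 2.73% of all 6875 such regions of the series did. KO was lower by at least as much at 610 regions (19.7%), against 17.3% of all regions. Shared regions at the ends of 2 or more genes had nearly the same median, 0.844 (0.825 to 0.864), shared regions inside genes had 0.898 (0.886 to 0.910), and shared intergenic regions 0.960 (0.942 to 0.980). These intervals count regions as independent. Scaled by the shared intergenic regions in place of the background, 92 members were higher and 455 lower.

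The ratio was lower where WT reads were more. WT reads are the denominator of the ratio, and a weak WT region enters only if its KO region was called too. How far these set the order was not tested. Members with 7 to 14 WT reads had a median ratio of 1.23, those with 15 to 19 had 0.997, those with 20 to 24 had 0.846, those with 25 to 39 had 0.776, and those with 40 or more had 0.760. At 25 to 39 WT reads, shared gene body regions had 0.782 (n = 551) and shared intergenic regions 0.798 (n = 446), close to the 0.776 of the 1215 members. Among regions with 40 or more WT reads the classes stood further apart, with 0.760 at 534 members, 0.811 at 179 gene body regions and 1.12 at 286 intergenic regions. Across the 3095 members the Spearman correlation of KO and WT reads was 0.751, a description over regions that share the same libraries.

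**Figure D1:**
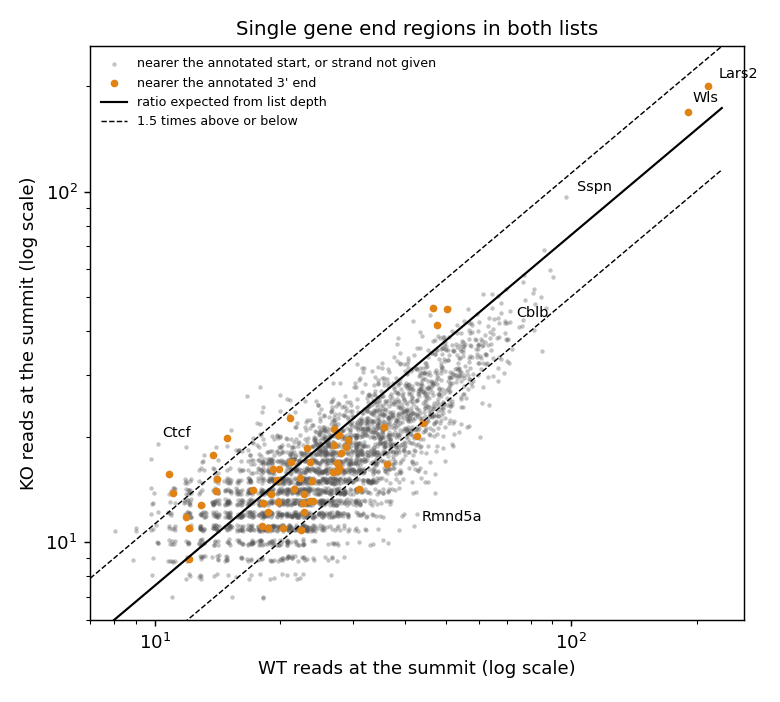
KO reads (vertical axis) against WT reads (horizontal axis) at the summit of each of the 3171 regions, both on log scales, with points spread by 2% so that equal counts stay visible. The solid line is the ratio of 0.752 given by depth and the dashed lines lie 1.5 times above and below it; most regions lie under the solid line, with Ctcf far above it at 19 KO and 10 WT reads and Rmnd5a far below it at 11 KO and 42 WT reads.

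The strongest members were the same at the top of both lists. Wls, which encodes the carrier that Wnt proteins need for secretion, had 172 reads in KO and 188 in WT (chromosome 3, 159939329 to 159939766 in WT). Lars2, the mitochondrial leucyl-tRNA synthetase, had 201 and 217 (chromosome 9, 123461721 to 123462279). Sspn, encoding sarcospan of the dystrophin complex, had 96 and 99, and Dnah7b, a dynein heavy chain gene, had 47 and 50. Their ratios were 1.22 (exact interval 0.983 to 1.5) at Wls, 1.23 (1.01 to 1.5) at Lars2, 1.29 (0.963 to 1.72) at Sspn and 1.25 (0.821 to 1.9) at Dnah7b, all above the median of members. The regions of Wls, Lars2 and Dnah7b lay at the 3′ end of the gene. Whether reads there map to a single place was not tested, and the local background at Lars2, 7.2 in KO and 8.28 in WT, was far above the genome background.

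Below these in WT fold enrichment came regions at gene starts or at genes whose strand was not matched. Sel1l had a fold enrichment of 16.1 in KO and 17.1 in WT, and Scai, a suppressor of cell invasion, 13.6 and 17.9. Gins4, a subunit of the replicative helicase complex, had 8.80 in KO (21 reads) and 17.5 in WT (57 reads), or 0.490 after scaling (0.282 to 0.821). Zfp983 (13.5 and 17.3), Zfp973 (10.3 and 17.3) and Cep128, a centriole protein gene (12.7 and 16.9), completed the 10 named genes with the highest WT fold enrichment. By KO fold enrichment Opn3, an opsin (15.2 in KO, 13.3 in WT), Zfp120 (15.1 and 15.2), Zfp965 (39 KO and 44 WT reads), Hook1, a dynein adaptor (14.5 and 14.6), and Catspere2 (14.5 and 14.4) joined Wls, Sspn, Lars2, Dnah7b and Sel1l.

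The widest gaps between the lists were at regions of modest read number. Ctcf, the insulator protein that anchors chromatin loops, had 19 KO reads and 10 WT reads, which scales to 2.53 (1.12 to 6.08), and stood at percentile 65.0 of the KO list and 2.41 of the WT list by fold enrichment. Its KO and WT regions overlapped only in part, with summits 430 bases before the transcript start in KO and 210 bases before it in WT, so they need not be the same site. Jtb had 17 and 10 reads (ratio 2.26, 0.977 to 5.52), Fam120a 16 and 11 (1.93), Ankrd42 21 and 15 (1.86), and Ubr4, a ubiquitin ligase gene, 14 and 10 (1.86). By percentile, Rpl12 (72.1 in KO, 16.4 in WT) and Trerf1 (75.6 and 22.0) joined Ctcf, Jtb and Fam120a. The region of Fam120a lay past the 3′ end of the gene. That of Rpl12 lay inside the gene, with its WT summit somewhat nearer the 3′ end than the start.

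In the other direction, Rmnd5a, a subunit of a ubiquitin ligase, had 11 KO and 42 WT reads, scaled to 0.348 (0.162 to 0.688). Ifngr1, a chain of the interferon gamma receptor, had 10 and 36 (0.369, 0.163 to 0.760), Abcb4, a phospholipid transporter gene, also 10 and 36, Fam117b 11 and 39 (0.375), and Bbs9, a subunit of the ciliary BBSome, 12 and 42 (0.380). Ifngr1 stood at percentile 3.54 in KO and 87.0 in WT. The largest percentile drops also took in Morc2a (10.7 in KO, 94.9 in WT), Lztr1 (3.20 and 89.4), Brpf3, part of a histone acetyltransferase complex (2.93 and 84.2), and Arrdc2 (8.20 and 88.0). All of these are extremes chosen from 3095 regions, and their intervals cover counting error only.

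Nearly all members sat at the start of their gene. Of the 2615 with a strand in the promoter table, 2561 had the WT summit nearer the annotated start (97.9%, exact interval 97.3 to 98.4) and 54 nearer the 3′ end. Among regions called in WT only, 1991 of 2113 (94.2%, 93.1 to 95.2) were nearer the start and 122 nearer the 3′ end, so the intervals do not overlap. The summit lay a median of 57 bases before the nearest transcript start in KO and also 57 in WT, over 2481 members within 1000 bp of such a start. It was upstream at 77.2% of these in KO and 78.4% in WT. Summits of WT-only regions lay a median of 23 bases before the start with 60.6% upstream, and were more spread. Their middle 50% ran from -82 to 63 bases, against -122 to -9 for WT summits of members. Within 100 bases of the start lay 57.7% of WT-only and 59.5% of member summits. These contrasts of position were not split by WT reads, and the part of WT reads in them was not tested.

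**Figure D2:**
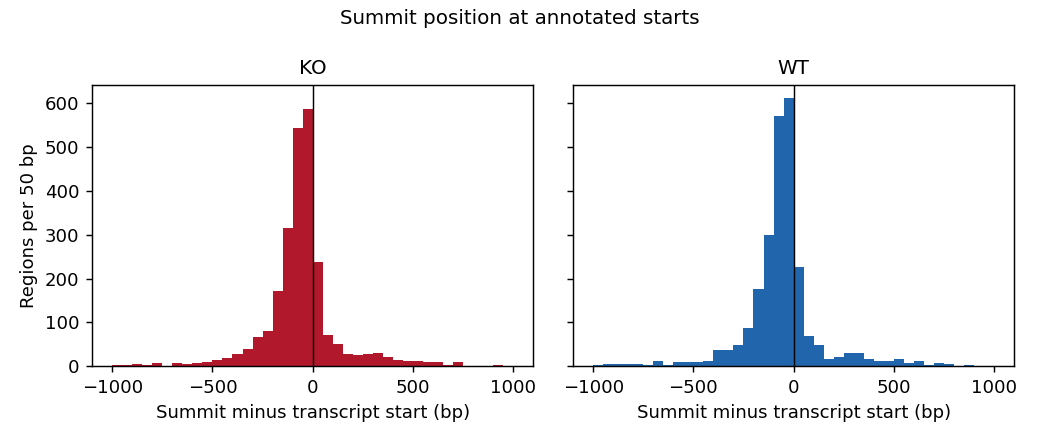
Number of members per 50 bp (vertical axis) by the distance of the summit from the nearest transcript start in bp (horizontal axis, negative is upstream), for KO on the left and WT on the right. Both panels peak just upstream of the start, with medians of 57 bases before it.

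The 54 members at 3′ ends had a median of 16 reads in KO and 23 in WT, and a depth-scaled ratio of 0.939 (0.840 to 1.06), against 0.831 (0.821 to 0.846) at 2495 starts. Besides Wls, Lars2 and Dnah7b, the highest WT fold enrichments there were at Exog, a mitochondrial nuclease (22 KO and 45 WT reads), the olfactory receptor genes Olfr313 and Olfr312 (16 and 27 reads each), Otulin, a deubiquitinase of linear chains (20 and 28), and Psen2, presenilin 2 (17 and 36). These 5 had ratios below 1, while Wls, Lars2 and Dnah7b were above 1, beside 75.8% of all members below 1. All were picked by WT values, which also enter the ratio, so nothing is read from this.

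Promoters of the members were CpG-rich. A window was counted as such with a GC content of at least 50% and an observed to expected CpG ratio of at least 0.6. Counting each window once, 1964 of 2439 member windows qualified (80.5%, 78.9 to 82.1), against 1262 of 1725 WT-only windows (73.2%, 71.0 to 75.2) and 45.1% of all 21263 protein-coding promoter windows. The difference of 7.37 percentage points (Newcombe interval 4.76 to 9.99) was also present among regions of like WT reads, with 8.71 points at 7 to 14 reads (1.49 to 14.8), 9.88 at 15 to 19 (4.50 to 14.9) and 9.85 at 20 to 24 (3.80 to 16.2). Above that few WT-only regions were left, 89 at 25 to 39 reads, and the interval of 4.76 points held 0 (-3.46 to 14.9).

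Among 20 short motifs counted on both strands, the CCAAT box had the widest difference between members and WT-only windows over regions of all WT reads. CCAAT was present in 1263 of 2439 member windows (51.8%, 49.8 to 53.8), in 608 of 1725 WT-only windows (35.2%, 33.0 to 37.6) and in 38.2% of all protein-coding windows. The difference between members and WT-only windows was 16.5 points (13.5 to 19.5). It was 17.8 points (14.3 to 21.1) within CpG-rich windows and 14.5 (8.15 to 20.8) in the others. With zinc finger and predicted genes left out it was 15.3 points (12.2 to 18.4). The GC box GGGCGG followed with 75.4% of members, 67.1% of WT-only windows and 46.2% of all windows, a difference of 8.37 points (5.58 to 11.2). Within classes of WT reads the GC box difference was 3.73 points at 7 to 14 reads (-4.24 to 10.98), 10.6 at 15 to 19 (4.71 to 16.1), 3.62 at 20 to 24 (-2.84 to 10.3) and 15.6 at 25 to 39 (5.70 to 26.3).

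Other motifs differed little between the classes. The ETS core CCGGAA was in 31.5% of member and 30.0% of WT-only windows (difference 1.56 points, -1.30 to 4.38), and in 18.7% of all windows. Letters of the ZNF143 site, ACTACAA, were in 5.86% and 4.46% (interval of the difference 0.016 to 2.73). Lower in members were the GATA factor letters AGATAA (3.65% of members, 6.14% of WT-only windows), the TATA box TATAAA (5.13% and 7.30%) and the IRF site GAAANNGAA (5.58% and 7.13%). Letters for T cell factors stood below their share in all windows in both classes: RUNX, TGTGGT, was in 11.4% of members and 12.5% of WT-only windows, and TCF/LEF, CTTTGA, in 10.3% and 11.5%, beside 14.4% of all windows. In total 6 of the 20 intervals of the difference excluded 0, with no adjustment for their number. None of the motifs spelled out here contains another, and a match is a description of the window and not a bound site.

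**Figure D3:**
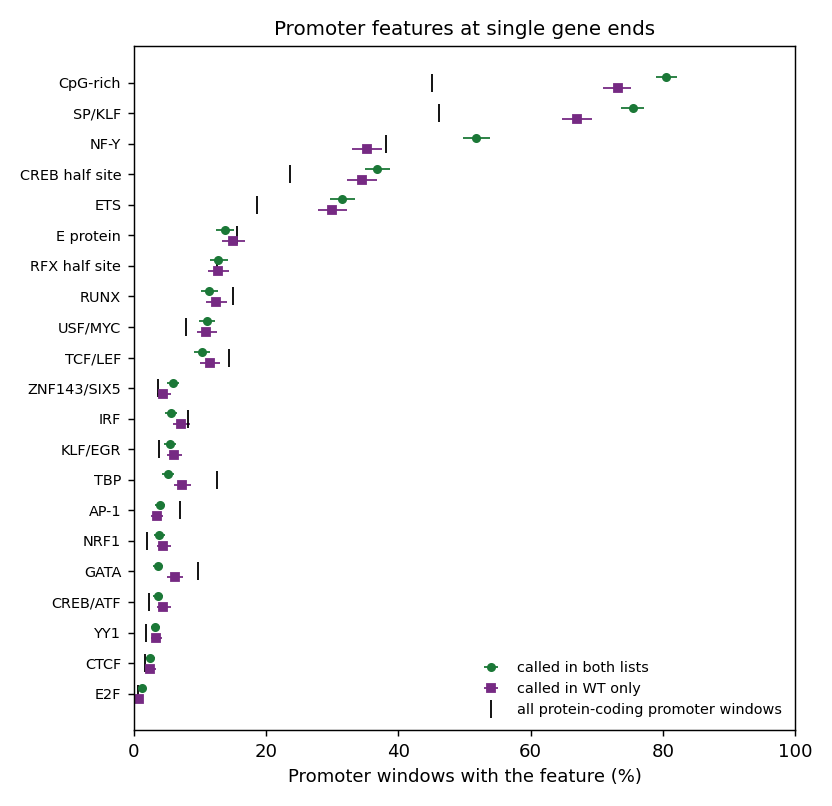
Share of promoter windows with each feature (horizontal axis, %) for members called in both lists (circles) and regions called in WT only (squares), with exact 95% intervals; vertical ticks give all protein-coding windows. The CCAAT box, labelled NF-Y, shows the widest gap between circles and squares, 51.8% against 35.2%.

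The share with a CCAAT box was higher where reads were more, in either list. By KO reads it was 39.8% of members with 7 to 14 reads (36.6 to 43.0), 51.7% with 15 to 19, 60.8% with 20 to 24, 69.3% with 25 to 39 and 88.1% of the 42 windows with 40 or more (74.4 to 96.0). By WT reads it was 27.1%, 39.3%, 41.4%, 55.4% and 74.2% in the same classes. The same order was not seen for the ETS core, 33.5% in the lowest class of KO reads and 28.6% in the highest, or for CpG-rich windows, 82.8% and 66.7%.

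Within the same classes of WT reads, the difference in CCAAT share between members and WT-only regions was -3.90 points at 7 to 14 reads (-10.9 to 3.91), 2.84 at 15 to 19 (-3.45 to 9.19), 0.444 at 20 to 24 (-6.87 to 7.64) and 10.5 at 25 to 39 (-0.339 to 20.8). Each interval held 0, which does not show the shares to be equal. In each of these 4 classes the GC box difference was the larger. Members had a median of 26 WT reads and WT-only regions 15, and the part of this in the 16.5 points over all members was not tested.

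**Figure D4:**
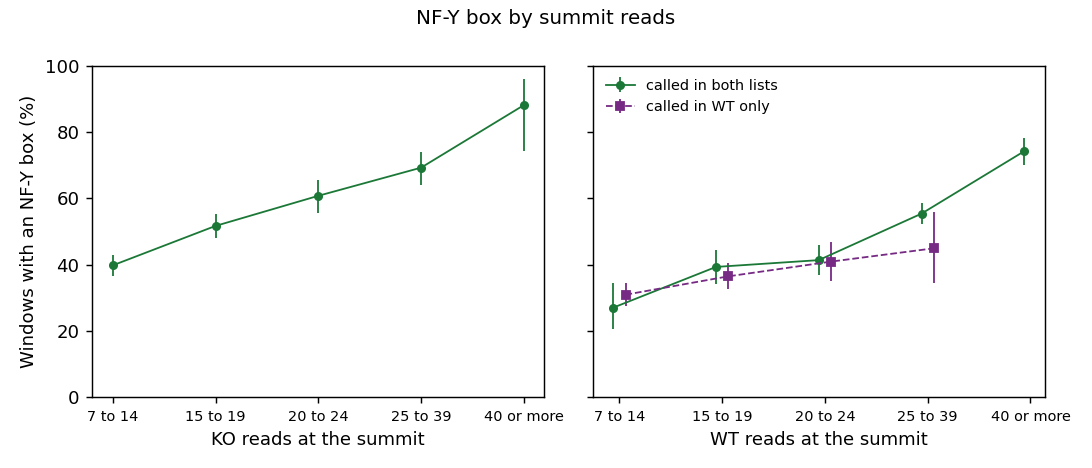
Share of promoter windows with a CCAAT box (vertical axis, %, labelled NF-Y box) by class of summit reads (horizontal axis), in KO on the left and in WT on the right, with exact 95% intervals. Circles are members and squares are regions called in WT only, left out above 39 reads where 1 window remained; members climb to 88.1% in KO and 74.2% in WT.

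Members with more boxes also had more reads. Without a box the median was 15 KO and 24 WT reads (1176 windows), with 1 box 17 and 27 (596), with 2 boxes 18 and 31 (408), and with 3 or more 20 and 34 (259). Width changed less, with medians of 301 and 444 bp without a box and 359 and 469 bp with 3 or more. The KO to WT ratio was lower with more boxes: 0.851 without a box (0.837 to 0.867), 0.821 with 1 (0.809 to 0.846), 0.798 with 2 (0.782 to 0.823) and 0.798 with 3 or more (0.767 to 0.823). Within classes of WT reads the medians with and without a box were 1.23 and 1.23 at 7 to 14 reads, 0.997 and 0.997 at 15 to 19, 0.867 and 0.823 at 20 to 24, 0.782 and 0.767 at 25 to 39, and 0.765 and 0.770 at 40 or more.

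The boxes lay near the summits. Of 2313 CCAAT matches in member windows, 1035 (44.7%) were centred between 100 and 25 bases before the start, a stretch that makes up 25.0% of the window, against 43.9% of 877 matches in WT-only windows and 38.8% in all windows. Either orientation was as common, with 51.2% reading CCAAT on the gene's strand. Among 1092 members with the WT summit and a box in the window, the nearest box was a median of 31 bases from the KO summit and 27 from the WT summit. For the GC box these distances were 34 and 32 bases, for the ETS core 55 and 45, and for the TATA box 138 and 131.

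Histone chaperone genes, those of CAF-1 among them, came next. Over all 21887 protein-coding genes 14.2% had a member, and 57.8% of the genes with a single gene end region in WT did, a share that the choice of members sets and from which nothing is read for the lists. Of 24 chaperone genes 13 had a member and 3 a WT-only region. The ratio was below 1 at 13 of 14 regions, beside 75.8% of all members, with a median of 0.776 beside 0.837 over all members. Chaf1b, the floxed gene itself, had 13 KO and 14 WT reads (ratio 1.23, 0.534 to 2.83), and as the labels give no loxP positions this does not check the deletion. Asf1b (13 KO and 32 WT reads, ratio 0.540) and Asf1a (16 and 34, 0.626) hand histones H3 and H4 to CAF-1. By WT reads the stronger included Nap1l4 (24 and 47), Nap1l1 (25 and 39) and Cabin1 of the HIRA complex (17 and 33). Npm1, nucleophosmin, had 12 and 26. Fewer WT reads were at Anp32e, which removes histone H2A.Z (13 and 25), and Hat1, which acetylates new histone H4 (14 and 22). Fewer still were at Rbbp7 (11 and 18), Nasp (10 and 17) and Daxx, which deposits histone H3.3 with Atrx (10 and 16). Ubn2 had 2 members, with 18 and 24 and with 11 and 19 reads. A CCAAT box was in 9 of the 11 promoter windows of the list, beside 51.8% of all member windows.

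Genes of DNA replication and the cell cycle had the lowest median ratio of the lists with at least 5 regions, 0.699 at 12 regions. Of these 9 were below 1, the share of all members being 75.8%, and 4 were lower by 1.5 times or more, beside 19.7% of all members. Orc2, of the origin recognition complex, had 17 KO and 42 WT reads (0.538), Ccnb1, cyclin B1, 12 and 29 (0.550), Gins1 12 and 26 (0.614), Gins2 20 and 42 (0.633), and Mcm10 18 and 34 (0.704). Mcm3 (25 and 36, 0.923) and Rfc3, a clamp loader subunit (29 and 35, 1.10), stood higher. Among repair genes the 9 members had a median of 0.867, with Dclre1c, the Artemis nuclease, at 29 and 54 reads and the mismatch repair gene Msh6 at 21 and 38. Gins4, among the strongest members, was in none of these lists.

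Of 40 genes of the T cell receptor complex and its signalling, 13 had a member and 11 a WT-only region. Thus 54.2% of those with a region were members (32.8 to 74.4), near the 57.8% of all genes. The median ratio was 0.868, with 10 of 13 below 1, near the 75.8% of all members. Beside Cblb the highest WT fold enrichments were at Bcl10 (33 KO and 69 WT reads, ratio 0.636), a link from the receptor to NF-kappaB, Cd2 (20 and 38), Fyn (32 and 49), a kinase of the receptor, and Malt1, the partner of Bcl10 (22 and 37). The region of Cd2 lay outside the gene, and which end it was near is not known because the strand was not matched. Cd28, the costimulatory receptor, had 13 and 21, and Nfatc3 21 and 22. Those with a WT-only region included Cd247, Cd3d and Cd3g, which encode chains of the receptor complex. Of 42 T lineage transcription factor genes, 7 had a member and 9 a WT-only region, Bcl11b, Gfi1, Notch1, Runx3 and Satb1 among them. The 7 with a member were Max, the partner of MYC (31 and 53), Id2, an inhibitor of E proteins (32 and 43), E2f1 (12 and 28), Tox (16 and 34), Tcf3, which encodes the E proteins E12 and E47 (11 and 19), Egr1 (17 and 35) and Stat5a (11 and 17). All 7 ratios were below 1, beside 75.8% of all members, with a median of 0.770 beside 0.837. So few regions do not set these genes apart from the members as a whole.

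Of 13 genes that mark the DP stage 1 had a member, Cd8b1, the CD8 beta chain, with 12 KO and 14 WT reads, and 8 had a WT-only region: Rag1, Rag2, Ptcra, Cd3d, Cd3g, Themis, Satb1 and Bcl11b. Over all genes 14.2% had a member and 57.8% of those with a region did. Of 23 genes tied to early iNKT development 6 had a member, and Sh2d1a, the adaptor SAP that iNKT cells need, was the only 1 of these with a ratio above 1, at 14 and 10 reads (1.86, 0.769 to 4.68). Ezh2, the histone H3 lysine 27 methyltransferase, had 14 and 26. Lists of markers of other cells are short, and at 14.2% of all genes a count of 0 in 8 says little. Of 8 genes each, the B cell, myeloid, erythroid, stromal and epithelial, and early progenitor lists had 0 members. The natural killer and innate list had 2, Gzma (14 and 20) and Prf1 (14 and 21), and the mature single-positive list of 9 had 2, Ccr7 (16 and 18) and Cd69 (15 and 17), both activation or maturation genes.

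Of 465 zinc finger genes 141 had a member (30.3%, beside 14.2% of all genes), with 122 promoter windows. Of the zinc finger genes with a single gene end region in WT, 66.2% had a member (59.4 to 72.5), beside 57.8% of all such genes. The windows of zinc finger members were less often CpG-rich than those of all members, 57 of 122 (46.7%) beside 80.5%. They more often held a CCAAT box, 77 of 122 (63.1%) beside 51.8%. Zinc finger members had a median of 18 KO and 27 WT reads, and a median ratio of 0.843, beside 0.837 over all members. Those with the highest WT fold enrichment, Zfp983 (46 and 72 reads), Zfp973 (21 and 47), Zfp691 (34 and 58), Zfp935 (34 and 61) and Zfp967 (26 and 44), had 1 to 4 boxes each. Zinc finger genes lie in clusters of close copies, and whether their reads map to a single place was not tested. The 2439 member windows held 2434 different sequences, and 9 windows shared theirs with another member window. That comparison was among members only and is no test of mapping.

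Housekeeping families had similar median reads. Cytosolic ribosomal protein genes had 22 genes with a member and 20 with a WT-only region, mitochondrial ones 11 and 9, and respiratory chain genes 20 and 15. The list of translation initiation factor genes had 19 and 9, splicing factor genes 10 and 10, and proteasome subunit genes 9 and 9. The initiation factor list is broad: its members include Eif2ak1, Eif2ak2, Eif2ak3, Eif2ak4 and Eif4ebp2, which encode regulators of these factors. Beside the 57.8% of all genes, the share with a member ran from 50.0% for splicing factors and the proteasome to 67.9% for the initiation factor list (47.6 to 84.1). The median reads of these families lay between 13 and 17 in KO and between 22 and 24 in WT. Median ratios ran from 0.712 for the proteasome, with Psma5 at 15 KO and 42 WT reads (0.475), to 0.918 for the respiratory chain, with Cox7c, a subunit of cytochrome oxidase, at 40 and 55 (0.967). RNA polymerase and Mediator genes had a median of 1.00 at 12 regions, with Polr3k at 30 and 54 and Polr2d at 22 and 27. The list of DEAD box helicase genes, which also holds Dhx genes, had 7 genes with a member and 17 with a WT-only region (29.2%, 12.6 to 51.1). Chromatin remodeller and modifier genes had 11 and 15 (42.3%, 23.4 to 63.1), with Smarca2, an ATPase of the BAF complex, at 37 and 50 reads and Chd8 at 15 and 37. Keratin genes had 0 of 53, beside 14.2% of all genes. The lists share no test, and a median over few regions carries the spread shown by their range.

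**Figure D5:**
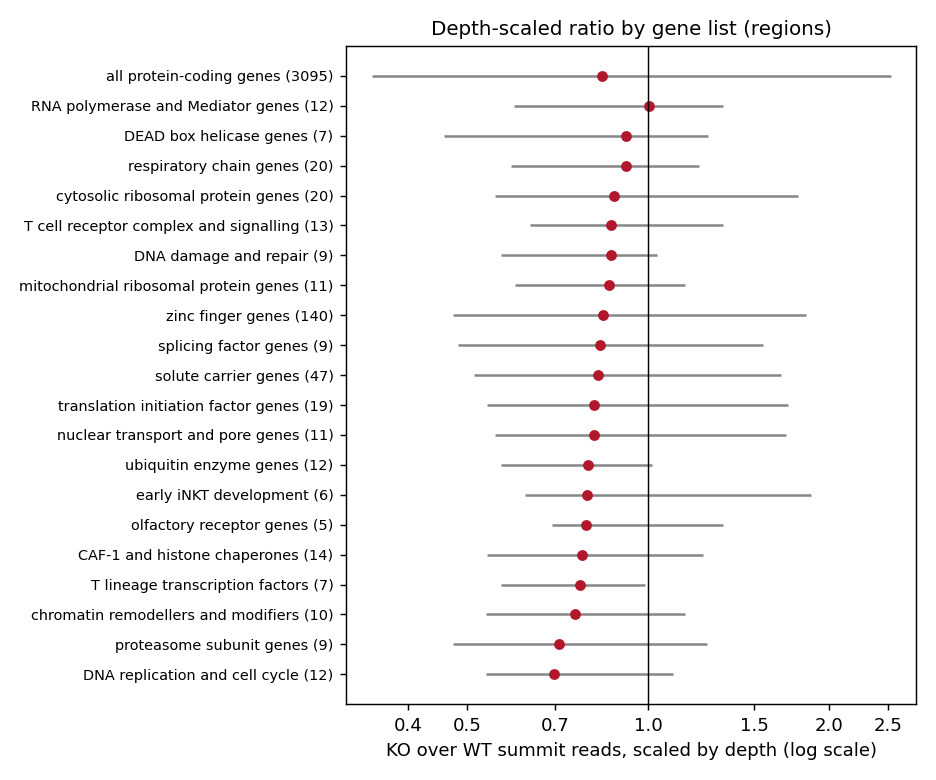
Depth-scaled KO over WT ratio of summit reads (horizontal axis, log scale) for gene lists with at least 5 regions; the number of regions is in parentheses, the dot is the median and the line runs from the lowest to the highest region. Medians run from 0.699 for DNA replication to 1.00 for RNA polymerase and Mediator genes, and the 3095 members, of which each list is a part, are at the top with a median of 0.837.

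The edges of the rule were set by small distances. The members farthest from a gene end were at Exoc3 (1000 bp away, 14 KO and 22 WT reads), Sesn3 (998 bp, 21 and 44) and Tff1 (994 bp, 9 and 12), while shared regions just outside lay 1011 bp from Psrc1 (11 and 24), 1015 bp from Pdcd4 (19 and 29) and 1015 bp from Agbl5 (15 and 17). The smallest overlaps were 5 bp at a second region of Wls (12 and 14 reads), 9 bp at Gorasp2 (9 and 20) and 10 bp at Lrrc58 (11 and 13). WT regions that missed a KO region by the least were at Klhl24 (a gap of 12 bp), Usp48 (15 bp) and Mms22l (24 bp), with 35, 16 and 13 WT reads.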

How the data were processed

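ATAC-seq peak lists of DP thymocytes were used, 1 per group, each made from both replicates per the labels. The submitters' processing notes name MACS2 2.1.4 and Bowtie2, and also Trim Galore, FastQC, deepTools 3.4.1, Picard and GATK, with build mm10. No source used here gives their settings, read shifting, duplicate removal or library depth. The authors deposited for each region a score, a fold enrichment ratio, and the -log10 of p and q. The deposited summit lists repeat positions and q.

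Summit reads and local background were solved from fold = (reads + 1)/(background + 1) and the Poisson tail p; all came out whole within 0.05. Gene ends were those of 21887 protein-coding genes in RefSeq GRCm38.p6, the assembly behind mm10. Strand and promoter sequence came from the RefSeq promoter table, which covered 2615 of the 3171 members. Shares carry exact Clopper-Pearson intervals and differences of shares Newcombe intervals, for counting error only. Ratios carry exact binomial intervals. Named genes were, predicted genes skipped, the 10 highest by KO and by WT fold, the 5 largest percentile differences each way, the 5 widest, and list members. The extreme ratios, 3′ end genes, read classes and any list genes named beyond the 5 of highest WT fold were chosen after values were seen. Members, lists and motifs were chosen with earlier results of these data known. Solver, overlap and motif search were tested on simulated data. Tools were matplotlib 3.10.9, statsmodels 0.14.6, scipy 1.17.1, pandas 2.3.3 and numpy 2.4.6 under Python 3.11.15. Settings varied were the q threshold, overlap, window, chromosomes, gene set, scaling and fold. Leaving out high background, and zinc finger genes, was added after the data were seen.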

Additional observations from a re-analysis of the deposited data

How the results depend on the processing

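Of 81 values recomputed for 8 results under 15 alternatives, 61 stayed within the interval of the main value or, for counts, within 1.5 times of it. The 20 that did not are as follows, and the cause was tested for none beyond what the alternative removes. With a -log10 q of at least 5 in both lists, members were 52.9% of single gene end regions, 32 were higher in KO, and 55.1% had a CCAAT box. With at least 10 there were 1239 members (40.3%), a median ratio of 0.860, a width ratio of 0.805, 5 higher and 147 lower in KO, and 65.2% with a box. Requiring an overlap of 50% of each region gave 43.9%, a width ratio of 0.813 and 54.0% with a box. Requiring the WT summit inside a KO region gave 52.4%. A window of 2000 bp put 96.7% at starts. Scaling by intergenic regions gave a median ratio of 0.872 and 92 higher in KO. A fold of 2 left 2 members higher and 67 lower in KO. With the WT summit inside the promoter window 55.8% had a box.

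No paired analysis was possible because each list pools both replicates of its group, so none can be left out. A median of 16 KO reads limits the precision of single ratios. At Nap1l1, with 25 KO and 39 WT reads, the exact interval ran from 0.494 to 1.44. A region missing from the KO list was not called at this depth, which does not show that the site was closed.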

Other observations

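Of 1110 olfactory receptor genes 5 had a member (0.450%, beside 14.2% of all genes). Of these 4, Olfr311, Olfr312, Olfr313 and Olfr314, lie on chromosome 11, with the region near the 3′ end of the gene. Their reads were 12 in KO and 23 in WT at Olfr311, 16 and 27 at Olfr312, 16 and 27 at Olfr313, and 13 and 13 at Olfr314. Olfr530, on chromosome 7, had 15 and 22. Whether reads at these genes map to a single place was not tested.

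Among 124 members with the letters ACTACAA of the ZNF143 site and the WT summit in the promoter window, the site lay within 25 bases of the KO summit at 19 (15.3%) and of the WT summit at 43 (34.7%). The median distances were 58.5 bases in KO and 44.0 in WT. For the CCAAT box the same shares were 46.2% in KO and 48.4% in WT, and for the GC box 40.6% and 42.9%. Lower KO shares were also seen at other motifs, such as CREB/ATF (24.3% in KO, 36.5% in WT), YY1 (6.25% and 12.5%) and the ETS core (28.4% and 33.9%). The KO share was the higher at RUNX (15.5% and 13.4%), AP-1 (11.5% and 8.97%), IRF (13.5% and 12.5%) and KLF/EGR (20.5% and 19.6%). A lower share in KO is thus not particular to the ZNF143 letters. This motif was picked from 20 after the values were seen, the window was chosen by the WT summit, and no test was made.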
